A study of Mus musculus with 46 samples.

Results

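The 10 genes described here encode the machinery that controls the start of translation through eIF2, namely the 4 eIF2α kinases (Eif2ak1 to Eif2ak4), the α subunit of eIF2 (Eif2s1) and the 5 subunits of eIF2B (Eif2b1 to Eif2b5). They were picked by gene symbol, and all 10 are among the 9857 gene symbols listed once under DMSO as well as under torin 1. The cells were EPP2, a murine pancreatic cancer line, in which doxycycline switches on Cas9. The cultures formed 4 groups: control with DMSO, control with torin 1, Ctu1 iKO with DMSO and Ctu1 iKO with torin 1. Ctu1 was disrupted with 300 ng/ml doxycycline given 4 days ahead (Ctu1 iKO), and DMSO or 300 nM torin 1, an inhibitor of the mTOR kinase, was present for the last 2 h. The iCas9 line was grown from a single cell, and the sources used here do not say whether the control cultures carried guide RNAs against non-coding regions or were kept without doxycycline, so doxycycline and Cas9 cutting cannot be told apart from loss of Ctu1. Ribosome footprints came from 6, 6, 5 and 6 cultures of these groups in that order, and RNA from the same cultures is used for replicates 1 to 3 of each group. The paper calls the replicates independent experiments, and its methods describe biologically independent repeats made on successive days, but in a smaller number than the libraries here. The labels only number the replicates and tie none to a day or culture, so where some were not grown separately the p-values measure spread that is in part technical.

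eIF2 carries the initiator tRNA to the ribosome, and each round of initiation leaves it bound to GDP, which eIF2B exchanges for GTP. When a kinase phosphorylates eIF2α on a serine near its start, eIF2 binds eIF2B tightly and blocks it, so that most mRNAs are initiated less while a few, Atf4 among them, are translated more. The kinases differ in what they sense: Eif2ak1 (HRI) lack of heme and mitochondrial stress, Eif2ak2 (PKR) double-stranded RNA, Eif2ak3 (PERK) unfolded proteins in the endoplasmic reticulum, and Eif2ak4 (GCN2) uncharged tRNA and stalled ribosomes. Ctu1 is part of the enzyme that thiolates the wobble uridine of the tRNAs that read AAA, CAA and GAA (VAA codons), and the study asked how this modification and mTORC1 together shape translation. Counts of mRNA and footprints do not show phosphorylation, so the activity of the kinases was not measured here.

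In the stretch of Eif2s1 around the regulatory serine, shown because it is the site on which all 4 kinases act, the capitals mark the serine codon (codons 42 to 62, exonic, chr12:78866650-78866712, plus strand, GRCm38). In the stretches of Eif2ak2 and Eif2b2, shown because these members have the highest and the lowest share of VAA codons, the capitals mark VAA codons. The window of Eif2ak2 covers codons 238 to 267 (exonic, chr17:78866347-78866436, minus strand) and holds 6 of them. That of Eif2b2 covers codons 200 to 229 (exonic, chr12:85222744-85222833, plus strand) and holds 3.
Eif2s1: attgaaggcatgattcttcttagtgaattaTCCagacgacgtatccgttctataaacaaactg
Eif2ak2: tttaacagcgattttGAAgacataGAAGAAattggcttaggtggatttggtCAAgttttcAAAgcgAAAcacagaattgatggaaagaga
Eif2b2: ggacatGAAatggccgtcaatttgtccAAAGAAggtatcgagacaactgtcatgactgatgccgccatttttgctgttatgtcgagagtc

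Over whole coding sequences (the longest per gene in GENCODE M21), 9 of the 10 members lay above the median VAA share of 6.12% over 9609 listed genes. Eif2ak2 had 13.2% VAA codons (percentile 95.3), with AAA alone at 6.60% (percentile 97.6). Eif2s1 followed with 13.02%, and its GAA share alone was 7.94%. Eif2ak1 with 9.37% and Eif2b3 with 9.07% were next, and Eif2b2 was the only member below the median, with 3.99% (percentile 24.4).

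Footprint libraries held between 4602092 and 52907878 counts and the RNA libraries used here between 129881946 and 293648854, so RNA counts were far deeper. Single members had 29 to 7936 footprint counts and 1032 to 33290 RNA counts per library, and the fewest were those of Eif2ak3. Every RNA count was even. When each library was placed on the axis from DMSO (0) to torin 1 (1) defined by control replicates 1 and 2, footprints with DMSO lay between -0.01 and 0.25 and with torin 1 between 0.527 and 1.09. Control footprints with torin 1 lay at 1.09 and 0.912 in replicates 1 and 2, which set the axis. In replicates 3 to 6 they lay only between 0.527 and 0.558. RNA of replicates 1 to 3 lay between -0.081 and 0.21 with DMSO and between 0.795 and 1.30 with torin 1. RNA of replicates 4 to 6 went against some labels, since the libraries labelled Ctu1 iKO with DMSO lay at 0.99 to 1.07 and those labelled control with torin 1 at 0.097 to 0.744, and these 11 libraries were used only as an alternative. The RNA level of Ctu1 was 4.62 ± 0.12 CPM (counts scaled to one common library total) in control and 4.63 ± 0.30 in Ctu1 iKO (SD, n = 3 each, with DMSO), and its footprints were 2.53 ± 0.65 (SD, n = 6) and 1.79 ± 0.42 CPM (SD, n = 5; adjusted p = 0.353), so its counts do not check the labels of the Ctu1 iKO. Of the epithelial markers, Krt8 and Krt18 stood at 138 and 125 CPM in RNA of control cultures with DMSO, Sox9 at 28.4 and Krt19 at 13.01 CPM, and Epcam was low, between 0.985 and 1.19 CPM, while Krt7 and Cdh1 are not listed. Of 5 fibroblast or stellate markers, Vim stood at 2463, Col1a1 at 128, Pdgfrb at 29.9 and Dcn at 0.967 CPM, and Col1a2 is not listed, so that both kinds of marker were present. Cd68, the 1 immune marker listed of 3, stood between 1.54 and 1.82 CPM.

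Levels between genes were compared per kilobase, from normalised CPM, in which library totals are adjusted by TMM factors that set most genes of the libraries level. In control cultures with DMSO, Eif2s1 had the highest footprint level of the members with 145 ± 17 CPM per kilobase of coding sequence (SD, n = 6), above 88.9% of the listed genes. The other eIF2 subunits, which are not among the 10, stood higher still, with 483 ± 47 for Eif2s2 (β) and 244 ± 39 for Eif2s3x (γ; SD, n = 6 each). The eIF2B subunits followed in the order Eif2b1 (82.2 ± 8.5), Eif2b2 (59.3 ± 8.1), Eif2b3 (57.0 ± 7.5), Eif2b4 (52.5 ± 6.5) and Eif2b5 (25.7 ± 2.7; all SD, n = 6). Within eIF2B, a complex with equal numbers of each subunit, the lowest and the highest footprint level thus differed 3.21-fold, while Eif2b2 and Eif2b3, and likewise Eif2b3 and Eif2b4, did not differ beyond their SDs.

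The kinases were the members with the fewest footprints per kilobase. Eif2ak1 led with 18.7 ± 2.5, followed by Eif2ak4 with 8.99 ± 1.37, Eif2ak2 with 5.65 ± 1.34 and Eif2ak3 with 0.905 ± 0.230 CPM per kilobase (SD, n = 6 each), and each of these means stood apart from the next by more than their SDs. Eif2ak3 was at the bottom of all genes listed, above 1.0% of them, and the value rises to 1.59 when the median length of its annotated coding sequences replaces the longest. The mean footprint level of the eIF2B subunits was exceeded by that of Eif2s1 2.62 ± 0.25-fold in control with DMSO (SD, n = 6), 2.76 ± 0.25-fold in control with torin 1 (SD, n = 6), 2.62 ± 0.28-fold in Ctu1 iKO with DMSO (SD, n = 5) and 2.68 ± 0.26-fold in Ctu1 iKO with torin 1 (SD, n = 6), and the ranges of the 4 groups overlapped.

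**Figure D1:**
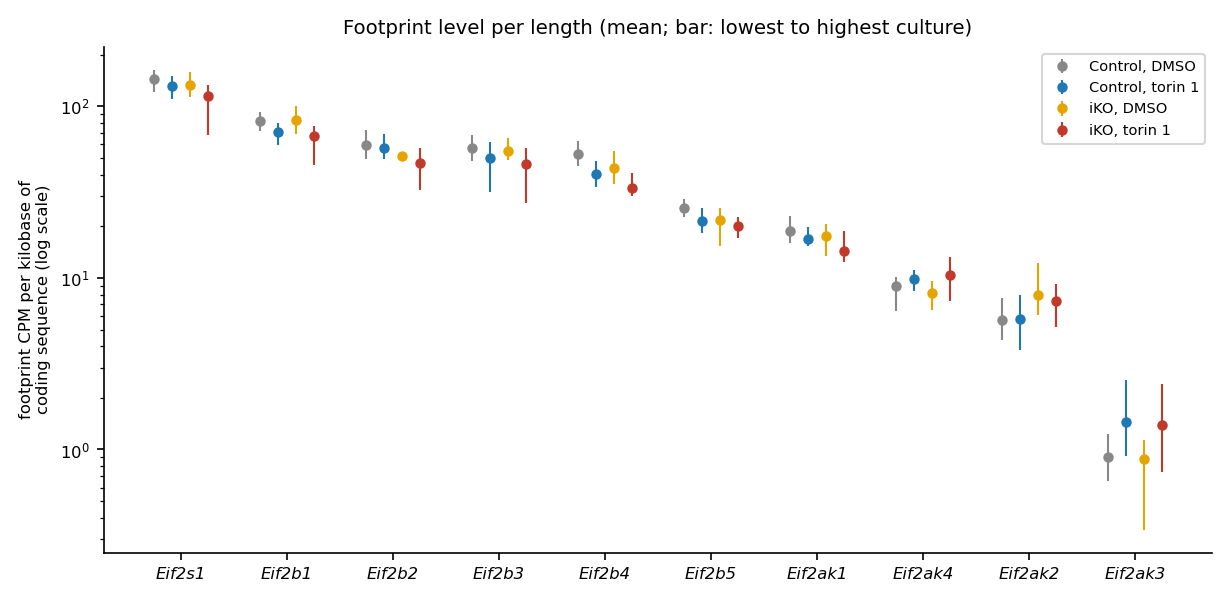
Mean footprint level of each gene in CPM per kilobase of coding sequence (vertical log axis) in the 4 groups, with bars from the lowest to the highest culture (n = 6, 6, 5 and 6). Eif2s1 stood highest and Eif2ak3 lowest in each group, and the order of the genes changed between groups only for Eif2b2 and Eif2b3.

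RNA levels followed another order. Per kilobase of transcript in control with DMSO, Eif2b5 had the highest RNA level of the members with 41.5 ± 2.0 CPM and Eif2ak3 the lowest with 1.41 ± 0.21 CPM (SD, n = 3 each). The log2 ratio of footprints per coding kilobase to RNA per transcript kilobase was highest for Eif2s1 at 2.10 ± 0.13 and Eif2b1 at 1.58 ± 0.18, and lowest for Eif2b5 at -0.80 ± 0.14 and Eif2ak4 at -1.22 ± 0.29 (SD, n = 3 each). Eif2ak4, the sensor of uncharged tRNA, lay above 64.1% of genes by RNA and above 32.6% by footprints. The zero of this ratio has no meaning of its own, because each assay is scaled to its own total, and the order of genes depends on the lengths taken.

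Torin 1 was given to ask what blocking mTOR does to these cells, and in control cultures the one member whose footprints changed past the threshold was Eif2b4, the δ subunit of eIF2B. Footprints of Eif2b4 (chromosome 5, 31187558 to 31193430, minus strand, GRCm38), whose exons share 204 noncoding bases with Snx17 on the opposite strand, had a lowest value of 76.6, a median of 89.8 and a highest value of 106 normalised CPM with DMSO, and of 57.3, 66.8 and 81.5 with torin 1. The groups overlapped, since torin 1 replicate 2 lay above DMSO replicates 1 and 3. The log2 change was -0.39 (SE 0.11), or 0.765-fold, with an adjusted p of 0.0383. Of all 9856 genes tested, 7.24% passed the same threshold (287 higher, 427 lower), beside 1 of the 10 members.

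The Eif2b4 call was close to the threshold. Among the 12 fits that each left out 1 library, it held without control DMSO replicate 1 or 3 or control torin 1 replicate 2 and was lost without any of the other 9 libraries (DMSO replicates 2, 4, 5 and 6, torin 1 replicates 1, 3, 4, 5 and 6), with log2 changes from -0.44 to -0.33 and adjusted p from 0.0195 to 0.0845. It was also lost with library totals in place of TMM (-0.30, adjusted p = 0.0785), a scaling that moves the median of all genes by 0.10, and with replicates 1 to 3 only (-0.26, adjusted p = 0.663). Same-numbered cultures deviated together in this comparison, and with the replicate number as a block Eif2b4 (-0.39, adjusted p = 0.00452) and Eif2b5 (-0.26, adjusted p = 0.0401) were called, 2 of 10 members where 20.5% of all genes were.

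Among the remaining members in control, footprints of Eif2ak3 stood at 2.18, 3.04 and 4.12 normalised CPM with DMSO and at 3.07, 4.26 and 8.47 with torin 1 (lowest, median and highest culture). The groups overlapped, and the log2 change of 0.68 (95% interval 0.08 to 1.28, adjusted p = 0.180) rested on 39 to 114 counts per library. The catalytic ε subunit, Eif2b5, stood at -0.26 on the log2 scale (adjusted p = 0.153), and the α subunit, Eif2b1, at -0.22 (adjusted p = 0.205). The footprint change of Eif2s1 was -0.14 (95% interval -0.36 to 0.09, adjusted p = 0.519), from a median of 142 normalised CPM with DMSO to 127 with torin 1. Over the 10 members the median log2 change was -0.14, beside 0.02 over all genes tested.

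**Figure D2:**
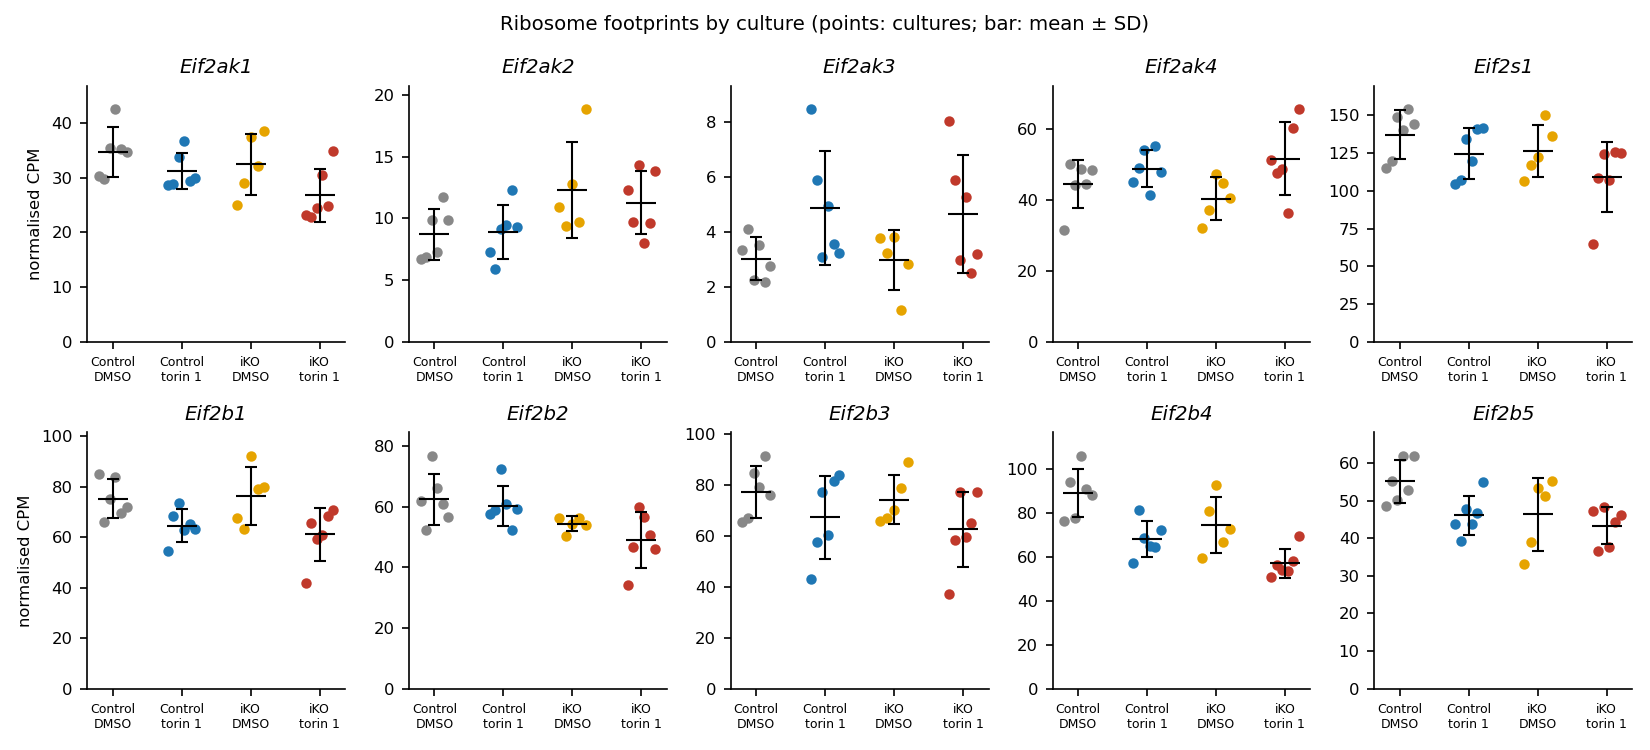
Normalised footprint counts of the 10 genes in CPM (vertical axis, from 0) for every culture of the 4 groups, with the mean and SD as black bars. Eif2b4 is lower with torin 1 in both genotypes with overlapping points, and Eif2ak3 is spread widely with torin 1, between 2.48 and 8.47 CPM. Its replicates 1 and 2 with torin 1 lie highest, at 8.47 and 5.86 CPM in control and 8.04 and 5.885 CPM in Ctu1 iKO. Replicates 3 to 6 lie between 3.07 and 4.95 CPM in control and between 2.48 and 5.27 CPM in Ctu1 iKO.

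In Ctu1 iKO cultures, torin 1 gave Eif2b4 footprints a log2 change that did not pass the threshold. The 5 cultures with DMSO had 59.5, 80.9, 92.9, 67.0 and 73.0 normalised CPM in replicates 1 to 5, and the 6 with torin 1 had a lowest value of 50.8, a median of 55.1 and a highest value of 69.4. All torin 1 cultures but replicate 6 were below every DMSO culture, and the log2 change was -0.39 (SE 0.13, adjusted p = 0.0806). Leaving out the DMSO library of replicate 1, the lowest of its group, gave -0.46 (adjusted p = 0.0463), and DESeq2 gave -0.39 (adjusted p = 0.0389). With the replicate number as a block, a pairing not taken as given here, it was -0.44 (adjusted p = 0.0367). That fit called 1 of 10 members, where 9.98% of all genes were called. With edgeR and the 2 groups alone no member was called, where 8.00% of 9855 genes were. For Eif2ak4 the value was 0.35 (95% interval 0.01 to 0.69, adjusted p = 0.215), and for Eif2b1 -0.32 (adjusted p = 0.204). Whether torin 1 acted differently in the presence and absence of Ctu1 was tested by an interaction term, which called none of the 10 members and 0.639% of 9857 genes (0 higher, 63 lower). For Eif2b4 it was 0.00 (95% interval -0.34 to 0.34).

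In RNA, torin 1 in control called no member with edgeR, where 13.1% of 9617 genes were called, and Eif2b4 and Eif2ak3 with DESeq2 (-0.39, adjusted p = 0.0319, and 0.47, adjusted p = 0.0376). Eif2b4 had 64.1, 66.8 and 76.4 normalised CPM in replicates 1 to 3 with DMSO and 43.6, 54.2 and 60.3 with torin 1. The torin 1 values were all below the DMSO values, and the log2 change of -0.39 (SE 0.13, adjusted p = 0.0891) was close to that of the footprints. Eif2ak3 had 6.85, 6.99 and 5.28 normalised CPM with DMSO and 10.2, 9.03 and 7.24 with torin 1, a log2 change of 0.47 (SE 0.16, adjusted p = 0.106), again with no overlap. RNA of Eif2b1 (-0.09) and Eif2ak1 (-0.13) did not overlap between these groups either, and the share of all genes without overlap was not counted. Same-numbered RNA libraries deviated together.

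With the replicate number as a block, RNA of 5 of the 10 members passed in control, where 43.7% of all genes did, so the share of members is near the background. RNA of Eif2ak3 rose (0.46, adjusted p = 0.000604), and that of Eif2b4 (-0.40, adjusted p = 0.000149), Eif2b3 (-0.22, adjusted p = 0.00360), Eif2b2 (-0.15, adjusted p = 0.0177) and Eif2ak1 (-0.14, adjusted p = 0.0489) fell. In Ctu1 iKO cultures, torin 1 called no member in RNA with edgeR (8.25% of 9619 genes), Eif2ak2 with DESeq2 (-0.32, adjusted p = 0.0317), and 4 members with edgeR and the block (35.1% of all genes). These 4 were Eif2ak3, which rose (0.47, adjusted p = 0.0143), and Eif2ak2 (-0.34, adjusted p = 0.0111), Eif2b4 (-0.22, adjusted p = 0.0330) and Eif2ak4 (-0.19, adjusted p = 0.0432), which fell. Eif2ak3 RNA with torin 1 in Ctu1 iKO had values of 14.5, 9.03 and 7.12 normalised CPM beside 8.38, 6.44 and 6.39 with DMSO, so that the groups overlapped while each pair moved up.

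**Figure D3:**
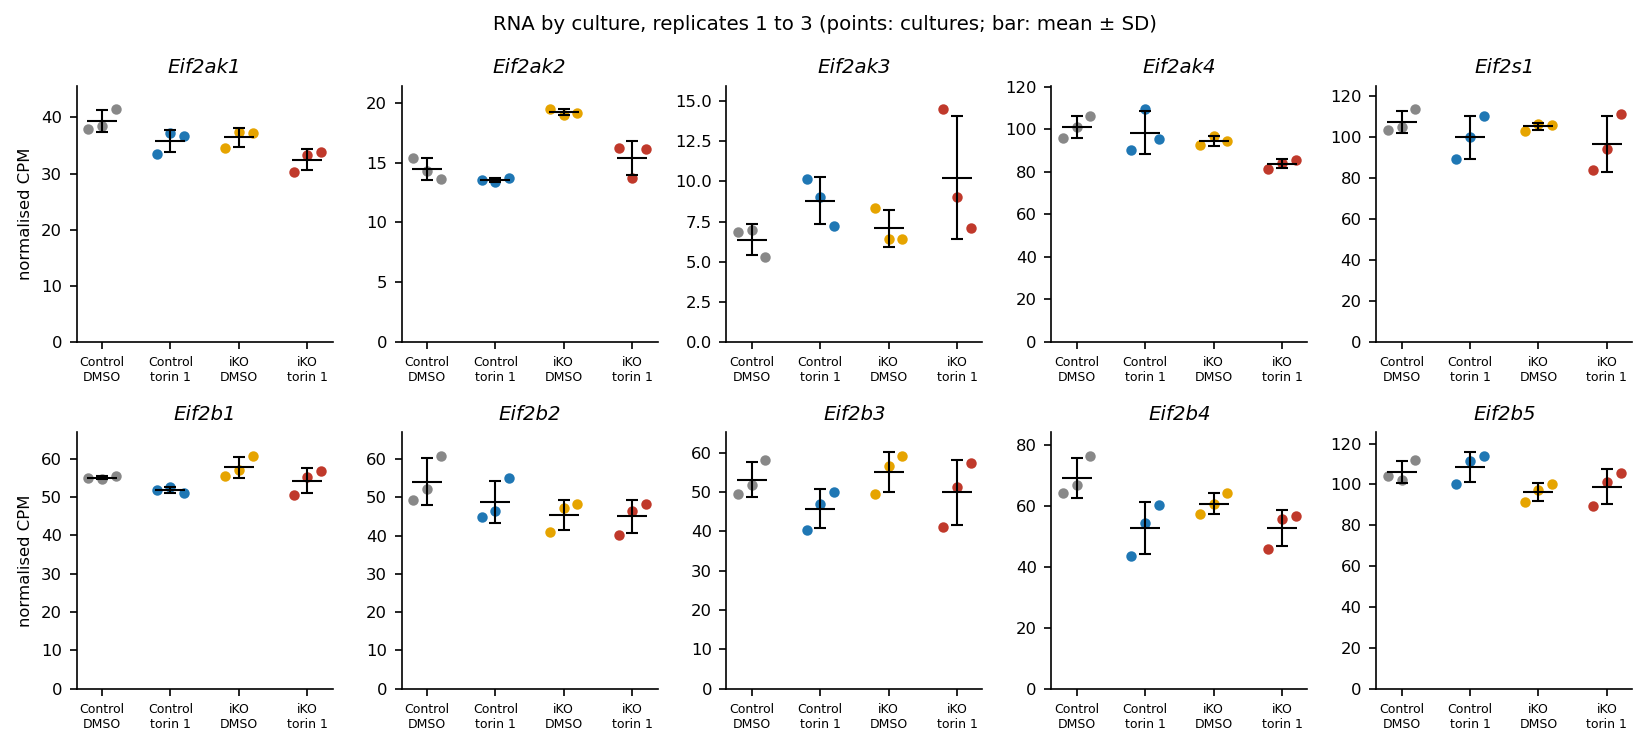
Normalised RNA counts of the 10 genes in CPM (vertical axis, from 0) for replicates 1 to 3 of the 4 groups, with the mean and SD as black bars. Eif2ak2 in Ctu1 iKO with DMSO lies between 19.0 and 19.5 CPM, above each of the other 9 cultures, and Eif2b4 with torin 1 lies below Eif2b4 with DMSO in both genotypes.

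Without torin 1, the comparison of Ctu1 iKO with control was made to learn the effect of losing the tRNA modification, and Eif2ak2 RNA was higher in Ctu1 iKO. Eif2ak2 (chromosome 17, 78852564 to 78882573, minus strand, GRCm38) encodes PKR, which is itself an interferon-stimulated gene, and its exons share 174 bases with the noncoding gene Gm26637 on the opposite strand. Its RNA stood at 15.4, 14.3 and 13.6 normalised CPM in control and at 19.5, 19.0 and 19.1 in Ctu1 iKO. The groups did not overlap, and the log2 change was 0.43 (SE 0.08), or 1.35-fold (adjusted p = 0.0312), the 1 member of 10 that edgeR called where 5.12% of 10119 genes were (336 higher, 182 lower). The call held without Ctu1 iKO replicate 3 and was lost without any of the other 5 libraries (control replicates 1, 2 and 3, Ctu1 iKO replicates 1 and 2), with log2 changes from 0.39 to 0.48 and adjusted p up to 0.151. With all RNA replicates, which include the libraries that went against their labels, it was 0.27 (adjusted p = 0.119), and Eif2b4 (-0.25, adjusted p = 0.0194) and Eif2ak1 (-0.17, adjusted p = 0.0493) were called instead.

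With the replicate number as a block, 3 members passed in RNA of Ctu1 iKO with DMSO, where 28.0% of all genes did. They were Eif2ak2 (0.43, adjusted p = 0.00355), Eif2b2, which fell (-0.23, adjusted p = 0.0210), and Eif2b4, which fell (-0.17, adjusted p = 0.0444). Eif2b2 RNA, for the β subunit, was 54.1 ± 6.1 normalised CPM in control and 45.4 ± 3.9 in Ctu1 iKO (SD, n = 3 each). Between Ctu1 iKO and control with torin 1, edgeR called no member in RNA (1.31% of 9650 genes), and Eif2ak2 had a log2 change of 0.19 (95% interval -0.05 to 0.43, adjusted p = 0.345). With the block Eif2ak4 RNA fell (-0.22, adjusted p = 0.0321), 1 of 10 members where 32.8% of all genes passed. In RNA the interaction of torin 1 and Ctu1 iKO called none of the members and 0% of 9616 genes with edgeR (140 genes at an unadjusted p under 0.05, and 3 called with DESeq2), and for Eif2ak2 it was -0.23 (95% interval -0.49 to 0.02).

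The promoter of Eif2ak2 is shown because this gene was the member called in RNA of Ctu1 iKO with DMSO by edgeR without the block. The RefSeq sequence (GRCm38.p6, chr17:78882523-78882822, minus strand) spans 250 bases before to 50 bases after the start site, and the capitals mark a match to GAAANNGAAA, the core of the interferon-stimulated response element, from 19 to 28 bases downstream of the start site.
Eif2ak2 promoter: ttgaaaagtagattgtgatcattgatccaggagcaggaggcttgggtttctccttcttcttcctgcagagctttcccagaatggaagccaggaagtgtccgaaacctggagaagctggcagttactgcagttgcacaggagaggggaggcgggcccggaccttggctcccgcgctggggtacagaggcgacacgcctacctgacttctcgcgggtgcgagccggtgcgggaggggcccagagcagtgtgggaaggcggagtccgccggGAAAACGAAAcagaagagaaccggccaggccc
Searched on both strands, the motif stands in 3.44% of 32851 promoters of this length. Of the members it stands in the promoters of Eif2ak2 and Eif2s1, 2 of the 10 promoters found for 9 members. The motif search was not among the planned steps, so these counts are a description and carry no test. A match describes the letters and not a bound site.

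Footprints between Ctu1 iKO and control called no member with edgeR, either with DMSO (2.66% of 10397 genes) or with torin 1 (4.83% of 9913 genes, and 14.4% with the replicate number as a block). Eif2ak2 footprints with DMSO had a lowest value of 6.71, a median of 8.56 and a highest value of 11.7 normalised CPM in control, and were 10.9, 9.42, 12.8, 9.73 and 18.9 in Ctu1 iKO replicates 1 to 5. The groups overlapped, and the log2 change was 0.50 (95% interval 0.04 to 0.96, adjusted p = 0.242), close in size to that of its RNA but with a wider interval on 116 to 604 counts. With torin 1 it was 0.34 (95% interval -0.10 to 0.77).

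Footprints of the other members did not pass the test between Ctu1 iKO and control either. With DMSO, Eif2b4 had a footprint log2 change of -0.25 (95% interval -0.52 to 0.01), Eif2b5 one of -0.24 (-0.54 to 0.05) and Eif2b2 one of -0.20 (-0.42 to 0.03). Eif2s1, which has the second highest share of VAA codons, had -0.11 (95% interval -0.35 to 0.13) with DMSO and -0.19 (-0.51 to 0.13) with torin 1. With torin 1, Eif2b2, which has the lowest share, had -0.29 (95% interval -0.57 to -0.01, adjusted p = 0.241). The direction was downward for 8 of 10 members in both comparisons, with a median of -0.10 in each, beside medians within 0.0123 of 0 over all genes. The plot of codon share against footprint change shows Eif2ak2 and Eif2s1, nearly equal in VAA codons, on opposite sides of 0. Neither change was called, and whether codon share goes with the change was not tested.

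**Figure D4:**
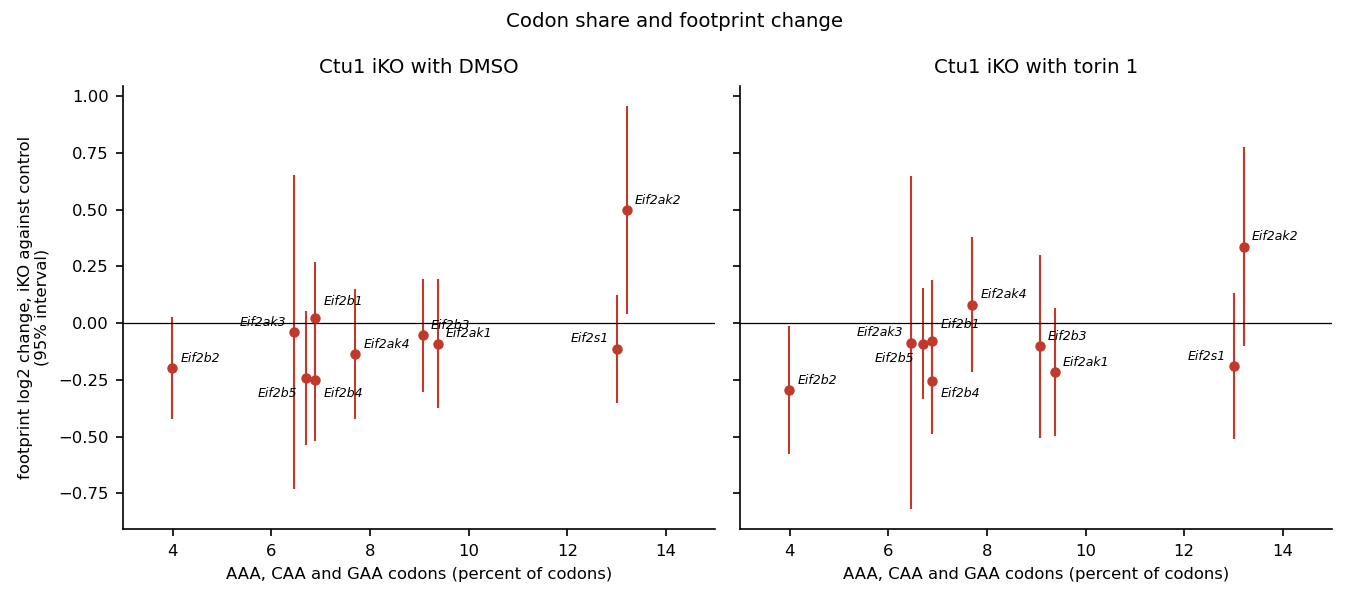
Share of AAA, CAA and GAA codons in percent of all codons (horizontal axis) and footprint log2 change of Ctu1 iKO against control with its 95% interval (vertical axis) for the 10 genes, with DMSO (left) and torin 1 (right). Eif2ak2 with 13.2% lies at 0.50 and 0.34, and Eif2s1 with 13.02% at -0.11 and -0.19.

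Translational efficiency, tested as the change in footprints relative to RNA in replicates 1 to 3, called no member in any of the 4 comparisons. For torin 1 in control, 1.18% of 9616 genes were called, and members lay between -0.26 (Eif2b5) and 0.40 (Eif2ak3). For torin 1 in Ctu1 iKO, 1.77% of 9615 genes were called, and Eif2ak4 had a log2 change of 0.51 (95% interval 0.09 to 0.93, adjusted p = 0.399), the one interval that left out 0. For Ctu1 iKO with DMSO, 0% of 10117 genes were called with edgeR (380 at an unadjusted p under 0.05, and 21 called with DESeq2), and for Ctu1 iKO with torin 1, 0.114% of 9644. The 95% intervals of members reached from 0.327 to 1.28 on either side of the value, which limits what could be detected.

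**Figure D5:**
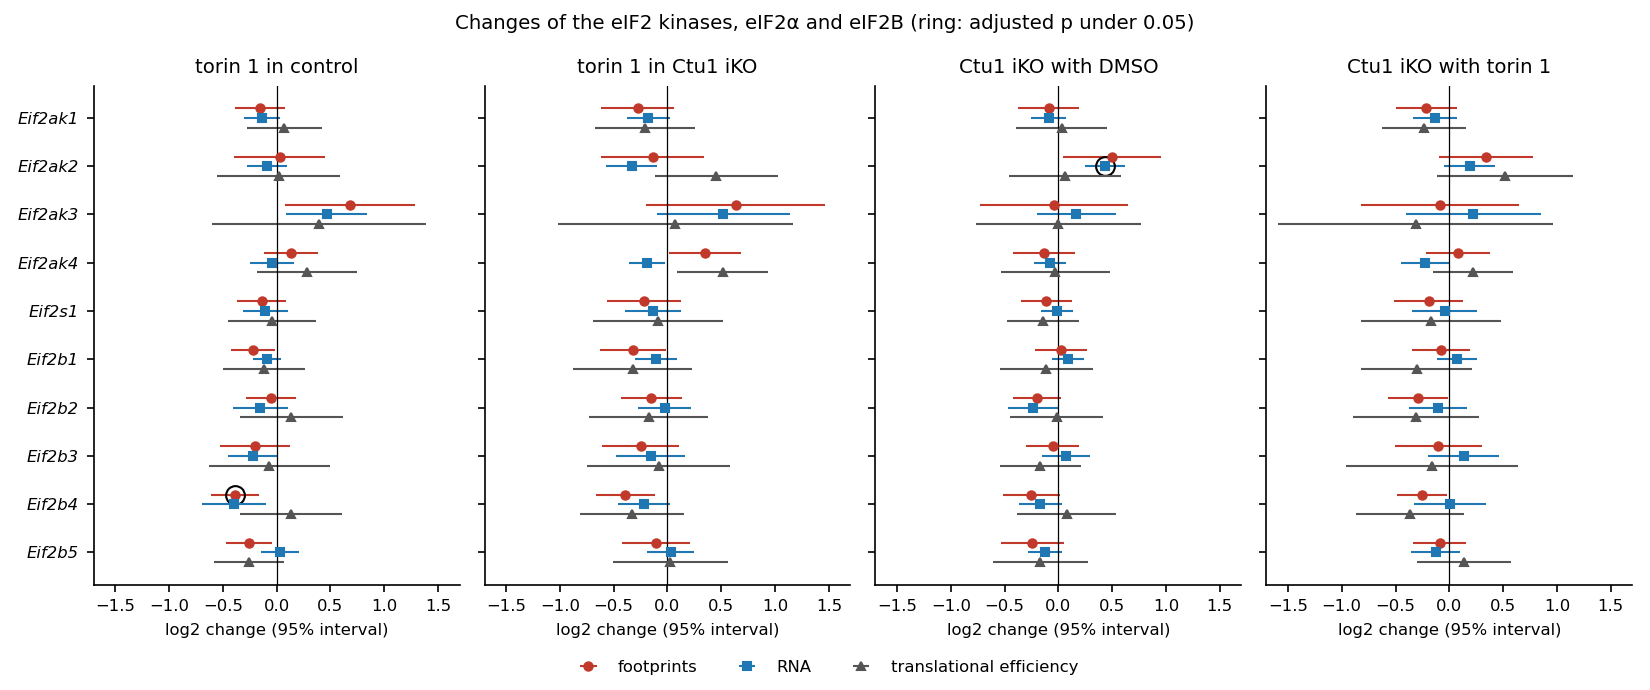
Log2 changes with 95% intervals (horizontal axis) of the 10 genes in footprints, RNA and translational efficiency for the 4 comparisons, from edgeR without the replicate block. Rings mark adjusted p-values under 0.05, which are Eif2b4 footprints with torin 1 in control and Eif2ak2 RNA in Ctu1 iKO with DMSO.

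Partners of eIF2 and other factors of start-site choice were read from a list of 17 genes, of which 16 were tested in each comparison. For footprints, without the replicate block, 1 was called for torin 1 in control, where 7.24% of all genes were (Eif1ad, a relative of the scanning factor eIF1A, -0.53, adjusted p = 0.0279), 1 for torin 1 in Ctu1 iKO, where 8.00% were (Eif2a, an initiation factor that is no subunit of eIF2, -0.63, adjusted p = 0.00855), none for Ctu1 iKO with DMSO (2.66%) and 1 for Ctu1 iKO with torin 1, where 4.83% were (Bzw2, a regulator of eIF5, -0.43, adjusted p = 0.0350). In RNA, where 13.1% of all genes were called for torin 1 in control, this comparison called Eif2a higher (0.38, adjusted p = 0.0272) and Eif1ad lower (-0.73, adjusted p = 0.00260). Eif1ad was also lower with torin 1 in Ctu1 iKO (-0.95, adjusted p = 0.00758; 8.25% of all genes called). Bzw2 was lower in Ctu1 iKO with DMSO (-0.29, adjusted p = 0.0437), where 5.12% of all genes were called, and no gene of the list was called in RNA of Ctu1 iKO with torin 1. The efficiency of Eif2a in Ctu1 iKO fell with torin 1 (-1.01, adjusted p = 0.0293), the one call of this list in efficiency, where 1.77% of all genes were called. With the culture as a block the efficiency of Eif1a also passed there (0.64, adjusted p = 0.0447), where 2.03% of all genes did.

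With the replicate number as a block, footprints of 5 of the 16 passed for torin 1 in control (1 higher, 4 lower), where 20.5% of all genes did. Both other eIF2 subunits were among those lower with torin 1, Eif2s2 with a log2 change of -0.29 (adjusted p = 0.00176, and 0.1001 without the block) and Eif2s3x with -0.22 (adjusted p = 0.0123, and 0.428 without the block). In Ctu1 iKO against control with torin 1, 5 of 16 passed (1 higher, 4 lower), where 14.4% of all genes did, and Eif2s3x was again among the lower ones (-0.27, adjusted p = 0.00974, and 0.467 without the block). Eif2s2 was not called there (-0.15, adjusted p = 0.285). For torin 1 in Ctu1 iKO, where pairing by number was not taken as given, the block called 2 of 16 (9.98% of all genes). Eif2s3x was among them (-0.55, adjusted p = 0.0113), and without the block it was not called (-0.45, adjusted p = 0.1625). Eif2s2 was not called in either fit. In RNA the block called 6 of 16 for torin 1 in control (43.7% of all genes), 6 for torin 1 in Ctu1 iKO (35.1%), 3 for Ctu1 iKO with DMSO (28.0%) and 5 for Ctu1 iKO with torin 1 (32.8%), with neither Eif2s2 nor Eif2s3x among them.

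The regulators of the kinases and of the eIF2α phosphatase were read from 17 genes, of which 15 are listed and 14 or 15 were tested. In footprints, 2 of 14 were called for torin 1 in Ctu1 iKO, where 8.00% of all genes were, and none in the other 3 comparisons or for the interaction. Impact, an inhibitor of GCN2, was higher (0.64, adjusted p = 0.0396) and Gcn1, the activator of GCN2, lower (-0.47, adjusted p = 0.0186). RNA of Impact was higher with torin 1 in control (0.56, adjusted p = 0.00796) and in Ctu1 iKO (0.66, adjusted p = 0.00758), and that of Nck1, an adaptor that brings the phosphatase to eIF2, lower (-0.34, adjusted p = 0.0495, and -0.40, adjusted p = 0.0490). The efficiency of Gcn1 fell with torin 1 in Ctu1 iKO (-0.89, adjusted p = 0.0103), 1 of 14 genes beside the same 1.77% of all genes. These are 2 of 14 genes in RNA of each genotype, where 13.1% of all genes were called in control and 8.25% in Ctu1 iKO. In RNA of Ctu1 iKO with DMSO 1 of 15 was called, where 5.12% of all genes were, namely Adar, which edits double-stranded RNA and so restrains PKR (0.43, adjusted p = 0.0465). These calls are without the replicate block. With it, 3 of 14 passed in footprints for torin 1 in control (20.5% of all genes) and 2 in Ctu1 iKO against control with torin 1 (14.4%). Gcn1 was lower and Impact higher in both, with log2 changes of -0.35 and 0.37 in the first (adjusted p = 0.00114 and 0.0336) and of -0.27 and 0.35 in the second (adjusted p = 0.0275 and 0.0314). In RNA the block called 8 of 14 for torin 1 in control (43.7%), 6 of 14 for torin 1 in Ctu1 iKO (35.1%), 2 of 15 for Ctu1 iKO with DMSO (28.0%) and 3 of 14 with torin 1 (32.8%).

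Downstream of eIF2, mRNAs known to respond to its phosphorylation and targets of ATF4 were called higher in Ctu1 iKO and lower with torin 1 for part of the list. Of 13 such genes, 8 rose and none fell in footprints of Ctu1 iKO with DMSO, where 2.66% of all genes were called, and 9 rose and none fell in RNA, where 5.12% were. The largest footprint changes of the list were those of Chac1 (2.48, adjusted p = 0.000270), Atf5 (1.74, adjusted p = 0.000396), Ddit3 (1.41, adjusted p = 0.0256) and Sesn2 (1.23, adjusted p = 0.00400). With torin 1, 6 of 11 tested rose in footprints of Ctu1 iKO, Trib3 most (1.37, adjusted p = 0.00681), and 4 of 11 in RNA, where 4.83% and 1.31% of all genes were called. Torin 1 itself lowered 3 of 11 in footprints and 3 of 11 in RNA of control, and 4 of 11 in each in Ctu1 iKO, and raised none. Over all genes, 7.24% and 13.1% were called in control and 8.00% and 8.25% in Ctu1 iKO. Trib3 fell most in footprints in both (-1.43 and -1.26, adjusted p = 0.00198 and 0.000311). No gene of this list was called in translational efficiency, where few genes were called at all. Over all genes the shares were 1.18% for torin 1 in control and 1.77% in Ctu1 iKO. For Ctu1 iKO against control they were 0% with DMSO and 0.114% with torin 1. With the replicate number as a block, torin 1 in control lowered 4 of 11 and raised 1 (Nupr1, 0.50, adjusted p = 0.0214) in footprints, where 20.5% of all genes were called, and lowered 7 and raised 2 (Nupr1 and Slc7a11) in RNA, where 43.7% were. In RNA of Ctu1 iKO torin 1 then lowered 6 and raised none (35.1%). In footprints of Ctu1 iKO, where pairing by number was not taken as given, the block had 4 of 11 lower with torin 1. There 1 was higher (Nupr1, 0.63, adjusted p = 0.0252), where 9.98% of all genes were called. Between Ctu1 iKO and control with torin 1, the block called 7 of 11 higher and 1 lower (Slc7a11, -0.31, adjusted p = 0.00855) in footprints (14.4%) and 9 higher and 1 lower (Slc7a11, -0.29, adjusted p = 0.00705) in RNA (32.8%). With DMSO it called 12 of 13 higher in RNA (28.0%).

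Atf4 itself stood at a median of 97.8 normalised footprint CPM in control with DMSO, 67.9 with torin 1, 179 in Ctu1 iKO with DMSO and 119 with torin 1, with no overlap between compared groups. Its log2 change in Ctu1 iKO with DMSO was 0.99 (SE 0.10, adjusted p = 0.000270) in footprints and 0.64 (SE 0.07, adjusted p = 0.00789) in RNA. The efficiency of Atf4 in this comparison changed by 0.35 (95% interval 0.003 to 0.69, adjusted p = 0.9999) and was not called. The replicate block changed no call of Atf4. The comparisons with the same control or Ctu1 iKO cultures share those samples and are not independent of each other.

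Across the 23 footprint libraries, the genes whose log2 CPM went most closely with that of Eif2s1, out of 8855 compared, were Gmps (r = 0.946), Ercc6l (r = 0.941) and Syncrip (r = 0.935). For Eif2b5 they were Nup153 (r = 0.841), Srr (r = 0.815) and Acad9 (r = 0.791), and for Eif2ak4 Cask (r = 0.732), Zgrf1 (r = 0.706) and Mapk12 (r = 0.705). These values describe the 23 libraries, which differ in depth and in group.

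Reads of genes on the opposite strand can be counted with a member where strand was not used, and the sources used here do not state whether it was. Besides the overlaps given for Eif2b4 and Eif2ak2, exons of Eif2ak1 share 487 bases with Aimp2 and 172 coding bases with Ankrd61, those of Eif2ak2 share 47 bases with the rRNA gene n-R5s29, and those of Eif2ak3 share 485 coding bases with Gm43292. Their part in the changes was not tested. CPM are relative to the library, so less RNA per cell and a larger share of other RNAs cannot be told apart.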

How the data were processed

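Ribosome footprints (23 libraries) and poly(A) RNA (23 libraries, of which 12, replicates 1 to 3, entered the main fits) were deposited by the authors as raw counts per gene. Per the labels and the authors' methods, footprint reads were trimmed with cutadapt 3.4, their molecular identifiers handled with UMI-tools 1.1.1, ribosomal RNA removed with BLAT, and aligned and counted with STAR 2.5.3a. RNA reads were trimmed with cutadapt 3.4 and aligned with STAR. The labels give mm10 as build, while the paper's methods name a human build, and the symbols are those of mouse. Each entry has at least 100 footprint counts in 1 library, so rarely translated genes are not listed. In each table, 23 entries under repeated symbols were left out.

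Tests took genes averaging 10 or more counts per library and used edgeR 4.0.16 (R 4.3.3; TMM, quasi-likelihood test, Benjamini-Hochberg adjustment over all genes, call at 0.05), 2 groups per fit, and efficiency as the interaction of assay and group. Normalised CPM uses TMM factors over the 23 footprint or 12 RNA libraries. Same-numbered libraries were checked for pairing by the correlation of their deviations from group means. In RNA every pair correlated (0.488 to 0.837), as did footprint pairs of control with DMSO and torin 1 (0.436 to 0.641) and of both genotypes with torin 1 (0.32 to 0.546), so fits with the replicate number as a block are given for these where a call or a count of calls changed. Both assays came from the same culture per the series' design. Alternatives were DESeq2 1.42.0, other scalings and filters, other sets of replicates, all 4 groups in 1 model, halved RNA counts and leaving out each library. The members and lists were chosen with earlier results of these data known. Named beyond the members were Ctu1, at most 4 called genes per list and comparison, and the 3 genes most like each of Eif2s1, Eif2b5 and Eif2ak4. Coding sequences came from GENCODE M21, promoters from RefSeq. Intervals cover the spread between libraries, and Python 3.11.15 and matplotlib 3.10.9 drew the figures.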

Additional observations from a re-analysis of the deposited data

Results flagged for a closer look

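In 40 groups of 5 or 6 footprint values, 2 held a culture far from the others, and chance flags about 1 in 20. Eif2ak4 in control with DMSO replicate 1 had 31.6 normalised CPM, below the next lowest culture with 44.0. Without this library its log2 change was 0.05 in place of 0.13 for torin 1 in control and -0.22 in place of -0.14 for Ctu1 iKO with DMSO, and none of these values passed the test. Eif2s1 in Ctu1 iKO with torin 1 replicate 1 had 64.7 normalised CPM, below the next lowest culture with 107, and this library has the lowest depth of all (4602092 counts). Without it the log2 change of Eif2s1 was -0.11 in place of -0.22 for torin 1 in Ctu1 iKO and -0.08 in place of -0.19 for Ctu1 iKO with torin 1, and none of these passed the test either. The part of depth in these values was not tested.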

How the results depend on the processing

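Under the alternatives, 2448 of 2640 member values kept their direction, 192 changed it without passing the test in either fit, 28 passed only in an alternative and 18 only in the fit reported. Where a count moved, the cause was not tested, but fits with fewer libraries have less power by construction. The alternatives with a term for replicates 1 and 2 against 3 to 6, with RNA replicates 1 and 2 and with all footprint replicates for efficiency were chosen after seeing the data.

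For footprints with torin 1 in control (714 genes, 1 member called), the replicate block called 2019 genes and 2 members, replicates 1 to 3 called 138 genes and 0 members, replicates 1 and 2 called 134 and 0, the term for replicates 1218 genes, library totals 0 members, and leaving out each library 559 to 737 genes and 0 to 1 members. With torin 1 in Ctu1 iKO (788 and 0), all 4 groups in 1 model called 1187 and 1, replicates 1 to 3 called 178 genes, replicates 1 and 2 called 144, the term 1368 and 1, DESeq2 1 member, the replicate block 1 member (Eif2b4, -0.44, adjusted p = 0.0367), and leaving out each library 527 to 921 genes and 0 to 1 members. In Ctu1 iKO with DMSO (277 genes), DESeq2 called 700, replicates 1 to 3 called 2, replicates 1 and 2 called 0, replicates 3 to 6 called 184, the term 737 and leaving out each library 144 to 285. In Ctu1 iKO with torin 1 (479), DESeq2 called 842, the replicate block 1425, the 4-group model 842, replicates 1 to 3 called 1, replicates 1 and 2 called 0, the term 914 and leaving out each library 301 to 572. For the interaction (63), these were 109 with DESeq2, 112 with the replicate block, 2 with replicates 1 to 3, 1 with replicates 1 and 2 and 121 with the term. In footprints of DMSO cultures and of Ctu1 iKO cultures, same-numbered libraries correlated in 4 of 5 pairs (0.264 to 0.464 and 0.231 to 0.419) and not in replicate 4 (-0.101 and -0.033), so pairing by number was not taken as given there.

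For RNA with torin 1 in control (1259 genes, 0 members), DESeq2 called 1964 and 2, the replicate block 4206 and 5, replicates 1 and 2 called 2 members, and leaving out each library 412 to 1233 genes and 0 to 2 members. With torin 1 in Ctu1 iKO (794 and 0), DESeq2 called 1609 and 1, the replicate block 3378 and 4, the 4-group model 1717 and 1, all RNA replicates 0 genes and leaving out each library 123 to 1123. In Ctu1 iKO with DMSO (518 and 1), DESeq2 called 1527, the replicate block 2831 and 3, all RNA replicates 2677 and 2, replicates 1 and 2 called 1547, and leaving out each library 0 (without control replicate 2) to 511 genes and 0 to 1 members. In Ctu1 iKO with torin 1 (126 and 0), DESeq2 called 1092, the replicate block 3162 and 1, the 4-group model 970, all RNA replicates 0, replicates 1 and 2 called 12 and leaving out each library 1 (without control torin 1 replicate 3) to 406. For the interaction (0), DESeq2 called 3.

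For efficiency with torin 1 in control (113 genes), DESeq2 called 226 and leaving out each library 63 to 104, and in Ctu1 iKO (170) DESeq2 called 316, all RNA and footprint replicates 257 and leaving out each library 105 to 163. In Ctu1 iKO with DMSO (0), DESeq2 called 21, library totals 1, the replicate block by culture 1, all replicates 5 and all footprint replicates 2. In Ctu1 iKO with torin 1 (11), they were 102 with DESeq2, 3 with library totals, 113 with all replicates, 60 with all footprint replicates and 0 to 8 without each library. The replicate block changed no call of a member other than those named here and in the results.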

Other observations

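Because Eif2ak2 is an interferon-stimulated gene, 26 other genes known to be induced by interferon were read from the same fits. This list was written after the values of Eif2ak2 had been seen, so its counts are a description and carry no test. In RNA of Ctu1 iKO with DMSO, 23 of the 24 tested were above 0, with a median log2 change of 0.72, and 6 were called, where 5.12% of all genes were. The called genes were Ifi207 (1.88), Xaf1 (1.56), Rtp4 (1.11), Ifit1 (0.84), Ifi35 (0.82) and Ifih1 (0.52), with adjusted p from 0.0134 to 0.0465. With torin 1, 20 of 22 were above 0 in RNA (median 0.50) and 1 was called, where 1.31% of all genes were. In footprints of Ctu1 iKO, 22 of 24 were above 0 with DMSO (median 0.34) and none was called, where 2.66% of all genes were, and 17 of 22 with torin 1 (median 0.24), of which 1 was called, where 4.83% of all genes were. With torin 1 against DMSO, their median in RNA was 0.13 in control, where 1 of 22 was called beside 13.1% of all genes, and -0.03 in Ctu1 iKO, where none was called beside 8.25%. These calls are without the replicate block. With it, RNA of 19 of 24 was called higher in Ctu1 iKO with DMSO, where 28.0% of all genes were called, and of 17 of 22 with torin 1, where 32.8% were, none lower in either. In footprints of Ctu1 iKO with torin 1 it called 2 of 22 higher (14.4%). For torin 1 in control it called 3 of 22 in footprints (20.5%) and 6 of 22 in RNA (43.7%), and in RNA of Ctu1 iKO 5 of 22 (35.1%). The control and Ctu1 iKO cultures may also differ in doxycycline and in Cas9 cutting, whose part in these values was not tested.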
